A study of Mus musculus with 5 samples.

Results

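The p53 target and regulator genes examined here are 10 genes, Mdm2, Mdm4, Ccng1, Gadd45a, Aen, Perp, Trp53inp1, Phlda3, Zmat3 and Sesn2, read in purified hematopoietic stem cells (HSCs) of mice that lack Atxn1L and of WT mice. Their probe sets were taken by annotation alone, as every probe set of the array assigned to exactly 1 of these genes. That gave 22 of the 45037 probe sets tested. The genes themselves were chosen with earlier results of these data known, so shares of calls among them are descriptive only. Transcript levels were measured on 5 Affymetrix MOE430.2 expression arrays, 2 with RNA of Atxn1L null HSCs and 3 with RNA of WT HSCs. All mice were on the C57Bl/6 background and 6 to 8 weeks of age per the labels, no group was treated, and the null mice carry a knock-out allele of Atxn1L. The cells were sorted from bone marrow as lineage-negative, Sca-1+ c-Kit+, CD150+ cells of the side population, which excludes Hoechst dye. HSCs were pooled for each chip and their RNA was amplified before labeling, so each array is a pool of cells, and how many mice went into a pool is not stated. The paper calls the arrays biological replicates, and the labels do not say which animals or sorts went into each pool, so p-values measure the spread between these pools.

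The transcription factor p53 is stabilized by DNA damage and other stress, and it switches on genes that halt the cell cycle, repair DNA, adjust metabolism or kill the cell. Mdm2 and Mdm4 hold it in check, and because Mdm2 is itself a p53 target the circuit limits its own output. In HSCs, p53 is known to favor quiescence and to restrain self-renewal, and loss of p53 expands the HSC pool.

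Values are log2 GCRMA values, a scale on which a step of 1 is a doubling, and levels of different probe sets are not comparable as amounts of RNA. The criterion for a call, higher or lower in Atxn1L null HSCs, was a limma p of at most 0.05 together with a fold of at least 1.5, a log2 difference of 0.585, without adjustment. Adjusted p-values are Benjamini-Hochberg values over all 45037 probe sets. Over the whole table this criterion called 1074 probe sets (2.38%), 510 higher (1.13%) and 564 lower (1.25%). Both null arrays lay above every WT array for 6.75% of all probe sets and below every WT array for 7.5%. A probe set is termed bright below when its mean reached 5 in at least 1 genotype, and dim otherwise. An exact permutation test of 2 against 3 arrays cannot give a p below 0.1 on the absolute mean difference, or below 0.2 if the smaller tail is doubled. Where an array was left out and 1 null array remained, the spread came from the WT arrays alone, and the lone null pool was assumed to vary like them.

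Atxn1l, the targeted gene, was called lower in the null pools. Its brightest probe set, by the mean over the 5 arrays, read 3.08 and 3.99 in the null pools, against 6.80, 6.69 and 4.98 in the WT pools, and whether its probes lie in the deleted part is not known from the files. HSC markers were bright for 9 of 10 measured genes, with a mean of 7.96 and 8.00 in the null pools and 7.94 to 8.08 in the WT pools, although Slamf1, which encodes the sorted CD150, was dim, at 3.89 in null and 3.92 in WT HSCs on its brightest probe set. Myeloid markers were bright for 7 of 9 genes, with means of 9.32 and 10.04 in the null pools and 9.15 to 9.88 in the WT pools. Erythroid markers were bright for 1 of 6 genes, at means of 3.84 and 3.89 in the null and 3.87 to 3.98 in the WT pools, and T and NK cell markers for 1 of 6, at 3.24 and 3.49 in the null and 3.22 to 3.35 in the WT pools. B cell markers averaged 4.41 and 4.45 in the null and 4.16 to 4.48 in the WT pools, and megakaryocyte markers 6.90 and 7.10 in the null and 6.93 to 7.06 in the WT pools. No marker gene of these 6 lists was called on its brightest probe set. The Gapdh 3' control exceeded the 5' control by 7.21 and 7.33 in the null pools and by 5.89 to 6.02 in the WT pools, and for beta-actin the excess was 7.28 and 7.43 in the null and 6.40 to 6.71 in the WT pools. Null and WT arrays thus did not overlap in this measure of RNA integrity and amplification, and its part in the differences below was not tested. In pooled cells, a change in the share of cells that express a gene and a change in RNA per cell cannot be told apart.

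Of the 10 genes, Ccng1 and Zmat3 were called higher in Atxn1L null HSCs and none was called lower. These were 2 of the 22 member probe sets (9.09%), beside the 1.13% of all probe sets that were called higher. Ccng1 rose 1.67-fold and Zmat3 1.69-fold. The other 8 genes were not called on any probe set, among them the p53 inhibitors Mdm2 and Mdm4, the growth arrest gene Gadd45a and all 4 genes of the apoptosis and survival group. No member passed after adjustment, the lowest adjusted p being 0.479. The median difference of the 22 probe sets was 0.0014, beside -0.0025 over all probe sets tested. As 15 of the 22 were dim, that median mostly describes probe sets near the floor of the scale, and the 7 bright ones, which read 6 genes, had a median of 0.11 and ran from -0.59 to 0.75.

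**Figure D1:**
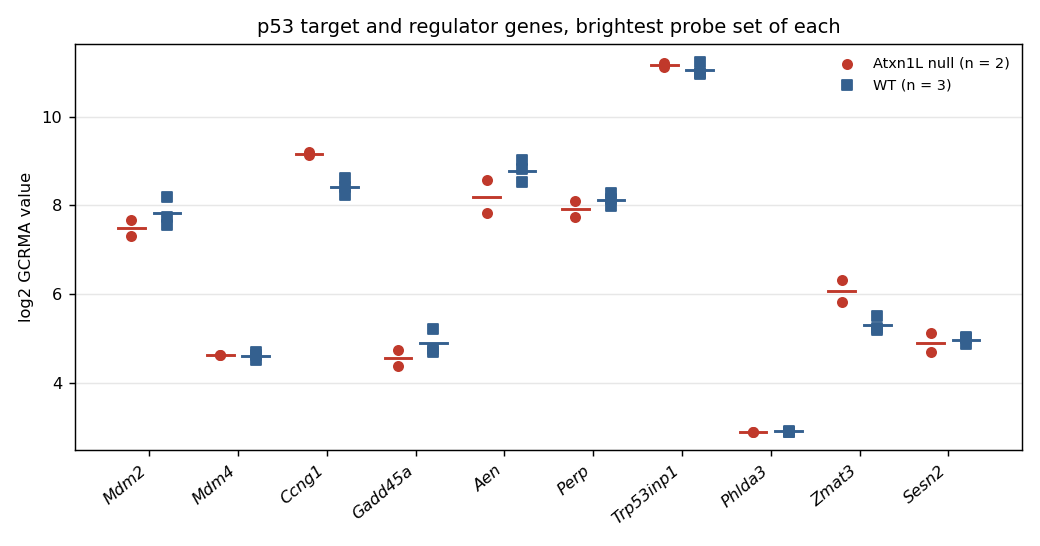
Log2 GCRMA values (vertical axis) of the 10 genes (horizontal axis), each on its brightest probe set, where points are single arrays and bars the genotype means. The Ccng1 and Zmat3 points of the Atxn1L null arrays lie above all WT points, while for the other genes the genotypes overlap.

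The upstream stretches of Ccng1, Mdm2 and Gadd45a are shown because p53 binds DNA through pairs of a decamer motif, and these members hold that motif within the 250 bases before their start. The RefSeq promoter table (GRCm38.p6) has entries for 7 of the 10 genes, 9 promoters in all, and no entry was matched for Zmat3, Perp and Trp53inp1. The p53 consensus decamer was searched without mismatch, and as it equals its own reverse complement a match counts on both strands. Capitals mark exact decamers, and for Ccng1 the 20 bases of a pair without spacer that holds 1 mismatch in all. Each stretch runs 5′ to 3′ on the strand of its gene.
Ccng1, chr11:40755287-40755536, minus strand: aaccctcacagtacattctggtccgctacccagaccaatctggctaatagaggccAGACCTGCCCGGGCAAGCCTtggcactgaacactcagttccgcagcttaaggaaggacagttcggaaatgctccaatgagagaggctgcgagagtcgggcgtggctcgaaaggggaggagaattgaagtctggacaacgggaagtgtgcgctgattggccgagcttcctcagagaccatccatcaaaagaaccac
Mdm2, chr10:117710759-117711008, minus strand: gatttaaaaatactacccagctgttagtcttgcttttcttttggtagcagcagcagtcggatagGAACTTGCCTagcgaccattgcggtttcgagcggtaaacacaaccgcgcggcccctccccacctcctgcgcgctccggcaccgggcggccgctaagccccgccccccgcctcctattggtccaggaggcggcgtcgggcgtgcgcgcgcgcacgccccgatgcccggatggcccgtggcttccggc
Gadd45a, chr6:67037408-67037657, minus strand: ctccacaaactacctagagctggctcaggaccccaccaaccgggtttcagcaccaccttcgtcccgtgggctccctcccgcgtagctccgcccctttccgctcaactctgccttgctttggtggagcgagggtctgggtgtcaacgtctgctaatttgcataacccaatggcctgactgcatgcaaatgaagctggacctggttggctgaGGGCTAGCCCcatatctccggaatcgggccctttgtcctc

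The Ccng1 pair lies 195 to 176 bases before the start, the Mdm2 decamer 186 to 177 bases and the Gadd45a decamer 40 to 31 bases before it. A second start of Aen has an exact decamer 121 to 112 bases upstream, and the promoters of Mdm4, Phlda3 and Sesn2 had no match in this window. An exact decamer was found in 7.13% of the 32851 mouse promoters of the table searched in the same way. A pair of decamers with at most 1 mismatch in all, the C and G of each core kept and a spacer of up to 13 bases, was found in 0.505% of them. Such pairs overlap the exact decamers, since at least 1 decamer of each is exact. Among the members with a promoter entry, Ccng1 was the 1 with such a pair. A match is a description of the letters and not a measured site of p53 binding.

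The inhibitors of p53 did not pass the criterion. Mdm2, the ubiquitin ligase that marks p53 for degradation, read 7.31 and 7.68 in the null pools, against 7.74, 7.56 and 8.18 in the WT pools on its bright probe set. The lowest value came from the first null pool and the highest from the third WT pool, and the genotypes overlapped. The log2 difference was -0.33 with a 95% interval of -1.03 to 0.37, so that a 1.5-fold fall is within the interval. Its dim probe sets differed by 0.10 and 0.0019. Mdm4, which binds the activation domain of p53 and blocks it, was dim on all 4 of its probe sets. The brightest of them read 4.62 in both null pools, against 4.51, 4.63 and 4.69 in the WT pools. Differences of the 4 probe sets ran from -0.084 to 0.012, all with overlap between the genotypes.

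Ccng1, which encodes cyclin G1, a p53 target that recruits protein phosphatase 2A to Mdm2, was the member with the most separated genotypes. Its brightest probe set read 9.20 and 9.13 in the null pools, against 8.25, 8.63 and 8.41 in the WT pools. Both null pools lay above the highest WT pool by more than the range of the WT pools. The mean was 9.17 ± 0.05 in null (SD, n = 2) and 8.43 ± 0.19 in WT HSCs (SD, n = 3), a log2 difference of 0.74 (standard error 0.13, 95% interval 0.37 to 1.11, limma adjusted p = 0.479). A second Ccng1 probe set read 7.11 and 7.24 in the null pools, against 6.86, 7.07 and 6.64 in the WT pools. It had the same order of genotypes, with both null pools above every WT pool, but its difference of 0.32 did not reach the required fold. The third was dim and differed by 0.080. The call of the brightest probe set was kept with any 1 array left out, with differences of 0.65 to 0.84, and it ended when the probe sets of the gene were averaged, where the difference was 0.38, and with the replicate number as a block, where it was 0.73. It also ended at a fold of at least 2 and at an adjusted p of at most 0.05.

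Gadd45a, a stress sensor that binds PCNA and p21 and takes part in growth arrest and DNA repair, read 4.37 and 4.74 in the null pools, against 5.22, 4.76 and 4.69 in the WT pools. The second null pool lay within the WT range. The difference of -0.33 on this dim probe set (95% interval -0.98 to 0.32) did not pass the criterion.

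Among the members with roles in apoptosis and survival, none of 4 was called, and Trp53inp1, which promotes p53 phosphorylation and autophagy, was bright in every pool. It read 11.14 and 11.22 in the null pools, against 11.23, 10.97 and 10.99 in the WT pools. The first WT pool was the highest of the 5, and the difference was 0.11 with a 95% interval of -0.17 to 0.40. Perp, a tetraspan membrane protein of desmosomes that p53 induces in apoptosis, read 7.74 and 8.11 in the null pools, against 8.27, 7.98 and 8.14 in the WT pools. Its difference was -0.20 (95% interval -0.65 to 0.25), with overlap between the genotypes. Phlda3, which competes with Akt for membrane lipids and so restrains Akt, was dim at 2.89 in null and 2.90 in WT HSCs.

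The probe sets of Aen, a nuclease that acts in p53-dependent apoptosis, went in opposite directions. The brightest read 7.83 and 8.57 in the null pools, against 9.02, 8.52 and 8.82 in the WT pools, a difference of -0.59 that met the fold but had a limma p of 0.121. The second null pool lay within the WT range and the first below it. The next probe set, dim by its means, read 5.16 and 4.57 in the null pools, against 4.46, 4.50 and 4.57 in the WT pools, a difference of 0.36. There the first null pool stood apart above the others and the second lay just above the highest WT pool. Without the second null array, the first stood alone against the WT pools and the differences were -0.96 for the brightest and 0.65 for the next. Both met the criterion there, but with 1 null array and a spread taken from the WT pools only. The other two probe sets of Aen were dim and differed by 0.055 and -0.030.

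Zmat3, a zinc finger protein that binds RNA and is a p53 target with roles in splicing and growth suppression, was called higher on its only probe set. It read 6.31 and 5.81 in the null pools, against 5.18, 5.51 and 5.23 in the WT pools. The null pools lay above all WT pools, but the second null pool was closer to the second WT pool than to the first null pool. The means were 6.06 ± 0.36 in null (SD, n = 2) and 5.31 ± 0.18 in WT HSCs (SD, n = 3), a log2 difference of 0.75 (standard error 0.20, 95% interval 0.18 to 1.33, limma adjusted p = 0.709). The call ended without the first null array (0.50), the first WT array (0.69) or the third WT array (0.72). Without the second null array the difference was 1.01 and the call was kept. It ended with the replicate number as a block (0.72), at a fold of at least 2 and at an adjusted p of at most 0.05.

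Sesn2, a sestrin that p53 induces under stress and that restrains mTORC1 signaling, read 5.12 and 4.69 in the null pools, against 5.01, 4.87 and 5.02 in the WT pools. The null pools were the highest and the lowest of the 5, and the difference was -0.064 (95% interval -0.50 to 0.38). Its other probe set differed by 0.058, and both were dim.

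**Figure D2:**
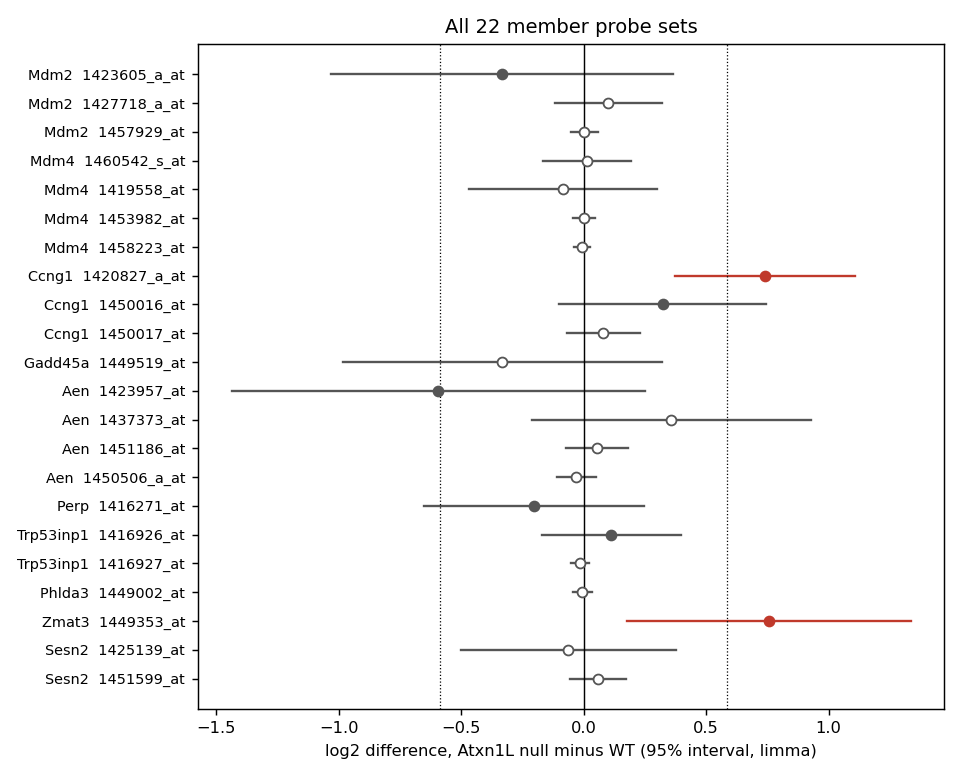
Log2 difference, Atxn1L null minus WT (horizontal axis), of the 22 member probe sets (vertical axis) with 95% limma intervals, where filled points are bright probe sets, open points dim ones, red marks a call and dotted lines stand at a fold of 1.5. The intervals of Ccng1 (0.37 to 1.11) and Zmat3 (0.18 to 1.33) lie above 0, and those of all other probe sets include 0.

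Counted by order alone, both null pools lay above every WT pool on 4 of the 22 probe sets, which were those of Ccng1 (the brightest and the second), Zmat3 and the second of Aen, and below every WT pool on none. That is 18.2% of the members, beside the 6.75% of all probe sets that lay above. The members share no common direction: of the 10 genes on their brightest probe sets, 4 had a positive and 6 a negative difference. Without the second null array, 3 member probe sets were called higher and 1 lower, of Ccng1, Zmat3 and Aen, in a fit whose spread came from the WT pools only, and 2.5% of all probe sets were called higher and 1.82% lower. Without the first WT array or the third WT array, Ccng1 alone was called, beside 0.777% and 0.808% of all probe sets called higher. Without the first null array the differences were 0.70 for Ccng1 and 0.50 for Zmat3.

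**Figure D3:**
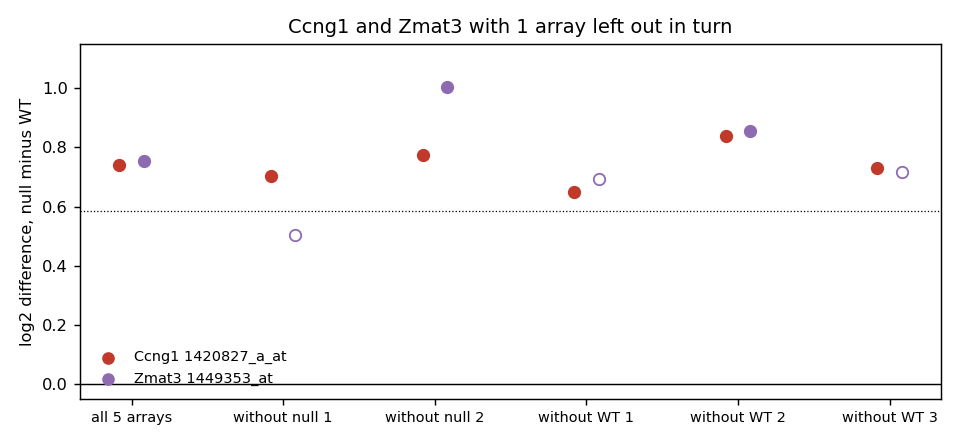
Log2 difference, Atxn1L null minus WT (vertical axis), of the called probe sets of Ccng1 and Zmat3 with all 5 arrays and with each array left out in turn (horizontal axis), where filled points were called, open points were not, and the dotted line is a fold of 1.5. Ccng1 was called in every case, at 0.65 to 0.84, and Zmat3 was not called in 3 of 5 cases.

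Other genes of the pathway were read from lists of regulators and targets of p53, each gene by its brightest probe set. Of 69 measured genes, none was called higher and 3 were called lower, beside 1.57% of all genes that were called higher and 1.43% lower on this reading. Their median difference was 0.0054, beside -0.0019 over all genes. An unadjusted limma p of at most 0.05 was found for 15 of their 149 probe sets (10.1%), beside 5.59% of all probe sets. Among all probe sets with 1 gene, 2152 of 34945 had such a p. Of the 15, 8 read apoptosis targets and include every probe set of Siva1 and of Rps27l. The 15 are thus in part repeated reads of the same genes, and the share does not describe the 69 genes evenly. No probe set of these genes passed after adjustment, the lowest adjusted p being 0.344. Trp53, Bax, Fdxr, Gdf15, Gls2, Rpl5 and Trp53cor1 were not analysed here.

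Among 26 regulators of p53, Chek2 was called lower and none higher. Chek2, the checkpoint kinase that phosphorylates p53 after double-strand breaks, read 7.47 and 7.87 in the null pools, against 8.85, 8.11 and 8.50 in the WT pools. It fell by 0.82 on the log2 scale (standard error 0.28, limma adjusted p = 0.862), and the call was kept without the second WT array (-1.01) and ended without any other 1 array, at -0.62 to -1.02. Atr, the kinase that responds to replication stress and is named here after its values were seen, read 6.92 and 6.64 in the null pools, against 5.86, 5.25 and 6.26 in the WT pools. Its difference of 0.99 did not pass, at a limma p of 0.052, and it was called under 7 of the 16 alternatives. The other Atr probe sets were dim and differed by -0.11 and 0.013, with overlap between the genotypes. Crebbp, an acetyltransferase of p53 also named after its values were seen, was called lower on a dimmer probe set, which read 6.69 and 6.75 in the null pools, against 7.97, 7.35 and 7.80 in the WT pools. That difference was -0.98, and its call ended without the first null array (-0.95) or the second (-1.01). The brightest Crebbp probe set differed by -0.28 with overlap between the genotypes.

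Of 9 cell cycle targets, none was called. Cdkn1a, the cell cycle inhibitor p21 and a leading p53 target, read 10.52 and 11.28 in the null pools, against 11.11, 10.59 and 11.39 in the WT pools. Its difference was -0.13 with a 95% interval of -1.18 to 0.92, wide enough to include a 1.5-fold change in either direction. A second bright Cdkn1a probe set differed by -0.42, with overlap between the genotypes. Its 95% interval of -1.12 to 0.27 includes a 1.5-fold fall but not a 1.5-fold rise. Plk2, a polo-like kinase that p53 induces, read 6.20 and 7.15 in the null pools, against 5.34, 6.04 and 5.69 in the WT pools, a difference of 0.99 with a 95% interval of -0.13 to 2.10. Both null pools were above every WT pool, but they differed from each other by more than the range of the WT pools.

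Among 16 targets with roles in apoptosis none was called on its brightest probe set, while both null pools lay above every WT pool on 9 of their 27 probe sets (33.3%), beside 6.75% of all probe sets. Siva1, an apoptosis regulator, accounted for 4 of them, and Rps27l, a paralog of the ribosomal protein gene Rps27 that p53 induces and is named here after its values were seen, for 3. The brightest Siva1 probe set read 11.43 and 11.33 in the null pools, against 10.78, 10.98 and 10.94 in the WT pools, a difference of 0.48 below the required fold (limma adjusted p = 0.464). Its 4 probe sets differed by 0.19 to 0.53. The brightest Rps27l probe set read 9.12 and 8.86 in the null pools, against 8.17, 8.57 and 8.52 in the WT pools, a difference of 0.57, just under the fold. A second was called higher at 0.68 and the third differed by 0.53. With 1 array left out, the call of the second was kept without the third WT array (0.79) and ended in the other 4 cases, at 0.51 to 0.79. Probe sets with the suffix x, as 2 of Rps27l and 2 of Siva1 are, may also bind transcripts of related sequence. Ei24, a protein of the endoplasmic reticulum that p53 induces, differed by 0.24, with both null pools above every WT pool.

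Of 16 targets in repair and metabolism, Dcxr and Lpin1 were called lower and none higher. Dcxr, a reductase of the xylulose pathway, read 6.07 and 6.40 in the null pools, against 6.96, 6.74 and 7.19 in the WT pools, and fell by 0.73 on the log2 scale. Lpin1, a phosphatase of lipid synthesis, read 5.11 and 5.09 in the null pools, against 5.77, 5.57 and 6.10 in the WT pools, and fell by 0.72. Its other probe set differed by 0.064, in the opposite direction. The Dcxr call ended without null pool 1 (-0.56) or WT pool 1 (-0.73). The Lpin1 call was kept without the second WT array (-0.84) and ended without any other 1 array, at -0.58 to -0.74. Gfi1 and Ndn, which are tied to p53 in the quiescence of HSCs, differed by 0.12 each and were not called.

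**Figure D4:**
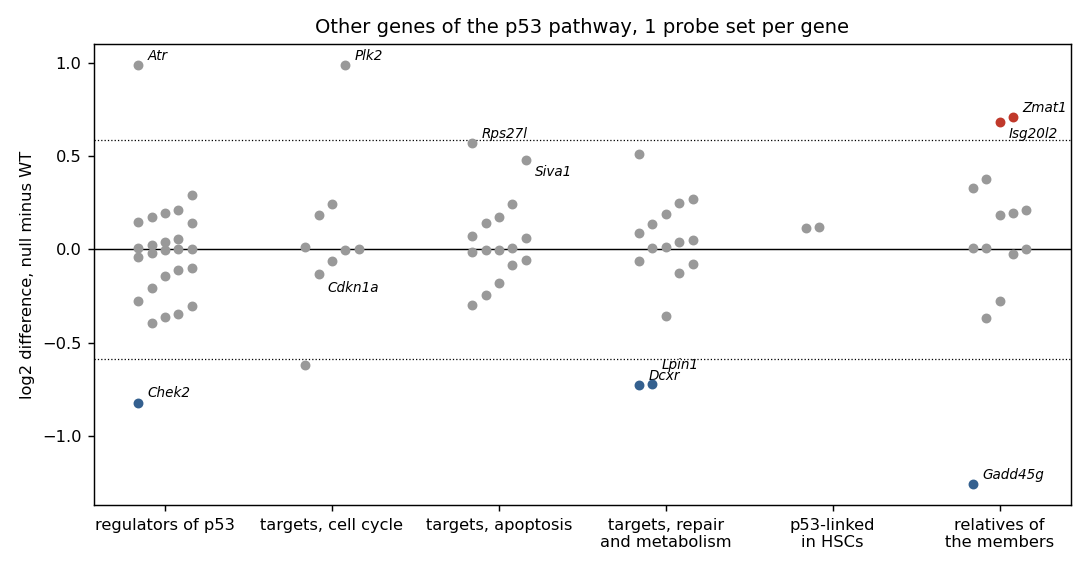
Log2 difference, Atxn1L null minus WT (vertical axis), of the other p53 genes and of relatives of the members, by list (horizontal axis), with a point per gene on its brightest probe set, red and blue for genes called higher and lower, gray for those not called, and dotted lines at a fold of 1.5. Chek2, Dcxr, Lpin1 and Gadd45g were called lower and Isg20l2 and Zmat1 higher.

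Relatives of the members, a list added after the data were seen, were read the same way. They were called higher for 2 of 14 genes and lower for 1, beside 1.57% of all genes called higher and 1.43% lower. The lower one was Gadd45g, a stress-response paralog of Gadd45a, which read 8.16 and 8.15 in the null pools, against 9.53, 9.23 and 9.50 in the WT pools. The null pools lay more than 1 log2 unit below the lowest WT pool, with a difference of -1.26 (standard error 0.11, limma adjusted p = 0.308), a 2.39-fold fall. That call was kept under every alternative tried except the one on adjusted p. Gadd45b, the remaining paralog, named after its values were seen, read 8.06 and 8.37 in the null pools, against 8.73, 8.52 and 8.50 in the WT pools on its brightest probe set. Both null pools were below every WT pool, and the difference of -0.37 did not reach the fold. On a slightly dimmer probe set Gadd45b read 8.21 and 7.58 in the null pools, against 8.84, 8.80 and 8.51 in the WT pools, and was called lower at -0.82. That call ended without null pool 2 (-0.51), WT pool 1 (-0.76) or WT pool 2 (-0.78), and without the first null array the difference was -1.13. Gadd45a differed in the same direction, at -0.33, with overlap and a dim signal.

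The relatives called higher were Isg20l2, an exonuclease related to Aen, and Zmat1, a zinc finger gene of the Zmat group. Isg20l2 read 5.91 and 5.63 in the null pools, against 4.98, 5.15 and 5.13 in the WT pools (difference 0.68, limma adjusted p = 0.464). Zmat1 read 5.29 and 5.10 in the null pools, against 4.69, 4.47 and 4.30 in the WT pools (difference 0.71, limma adjusted p = 0.538). In both genes the null pools lay above every WT pool, near the lower bound of the bright range. Both calls ended at a fold of at least 2 and at an adjusted p of at most 0.05. The Isg20l2 call also ended with the replicate number as a block. Without the first null array neither was called, at 0.54 for Isg20l2 and 0.62 for Zmat1, and both calls were kept without any other 1 array. Ccng2, the paralog of Ccng1, differed by -0.026, Sesn1 by 0.19 and Sesn3 by 0.33, each with overlap between the genotypes on its brightest probe set. The other Sesn1 probe sets went in different directions. One differed by 0.17 with both null pools above every WT pool, and one by -0.26 with both below. The last differed by 0.026 with overlap.

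**Figure D5:**
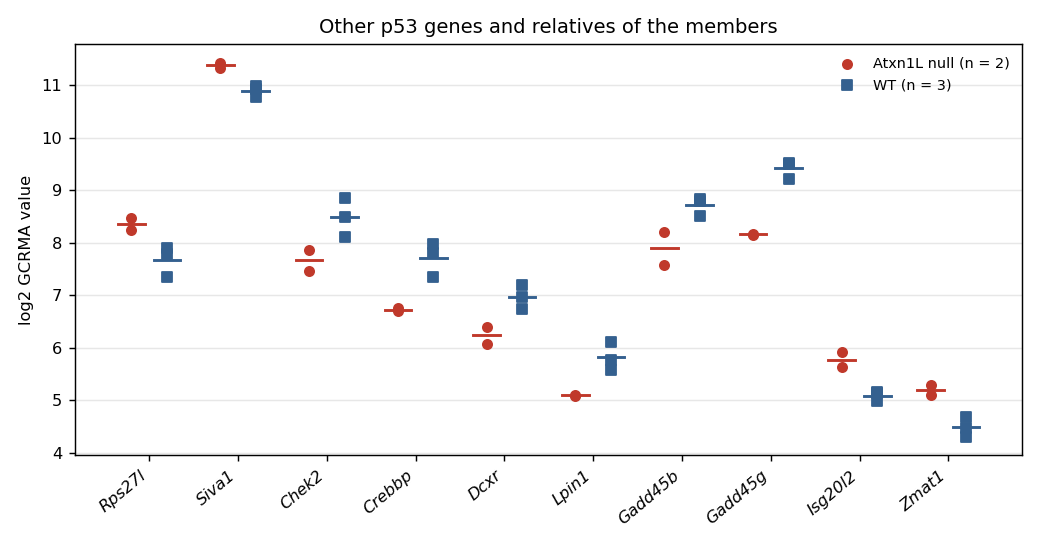
Log2 GCRMA values (vertical axis) of other p53 genes and relatives of the members (horizontal axis), where points are single arrays and bars the genotype means, on a called probe set for every gene except Siva1. Gadd45g lies at 8.16 and 8.15 in the Atxn1L null arrays, below the WT arrays at 9.23 to 9.53. The genotypes do not overlap on any probe set shown, but these were picked by their calls or values and do not describe the lists.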

How the data were processed

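RNA from pooled, sorted HSCs of 2 Atxn1L null and 3 WT samples was hybridised to 5 arrays. The authors used GCRMA, of unstated version, and deposited log2 values, whose log base was read from their range. Each column was assigned to its genotype by the sample labels.

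Without the 64 Affymetrix controls, 45037 probe sets, dim ones included, were fitted in limma 3.58.1 (R 4.3.3) with lmFit and eBayes at their defaults and a mean per genotype, leaving 3 residual degrees of freedom (prior 0.771). A call took the threshold of the paper's text, a fold of 1.5 or more at p of at most 0.05, and Benjamini-Hochberg adjustment ran over all probe sets. The annotation gave 34945 probe sets 1 gene, 932 several and 9160 none, and only those with 1 gene named a gene. The number of arrays limits the precision. The script was checked on simulated data.

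The members and lists were chosen with earlier results of these data known. Named were all members, Cdkn1a, Gfi1, Ndn, Atxn1l and, from each list, up to 4 called genes a direction or else the 2 brightest. Alternatives were another variance model, array weights, renewed quantile normalization, median centring, filters on dim or cross-hybridizing probe sets, 1 probe set per gene or their average, other criteria, a replicate block, and each array left out.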

Additional observations from a re-analysis of the deposited data

How the results depend on the processing

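Of the 20 member probe sets not called, 2 (both of Aen) were called under at least 1 of 16 alternatives and 8 changed sign, and no called value changed sign. The Aen calls came without the second null array, where the lone null array takes its spread from the WT arrays. With 1 WT array left out in turn, 1 to 2 member probe sets were called higher, 0 lower and 1 to 2 member genes were called. With all arrays these counts were 2, 0 and 2. Without a WT array, 0.777% to 1.14% of all probe sets were called higher and 0.797% to 1.42% lower. Averaging the probe sets of a gene left 1 member called higher (Zmat3), beside 0.632% of all genes. An adjusted p of at most 0.05 left 0, beside 0% of all probe sets, and a fold of at least 2 left 0, beside 0.133%. The median difference of the members, 0.0014, was 0.11 for bright probe sets alone, -0.035 with the highest-mean probe set of each gene, -0.013 with probe sets averaged and -0.011 to 0.0093 with 1 array left out.

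Of the other p53 genes, 0 were called higher with all arrays. With a variance trend and robust estimation 2 were, beside 1.37% of all probe sets. The count was 1 with gene-by-gene array weights (1.17%), 1 after renewed quantile normalization (1.18%) and 1 after median centring (1.11%). Among bright probe sets it was 2, where 4.23% of all those tested were called higher. It was 1 without cross-hybridizing probe sets (1.01%), 1 with probe sets averaged (0.632% of all genes) and 0 to 2 with 1 WT array left out (0.777% to 1.14%). Called lower were 3, against 0 at an adjusted p of at most 0.05, 0 at a fold of at least 2 and 0 to 3 with 1 WT array left out. Of all probe sets, 0.00222%, 0.377% and 0.797% to 1.42% were called lower in these settings.

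With the replicate number as a replicate block, which keeps only the arrays numbered 1 and 2, 0 member probe sets and 0 member genes were called. Of the other p53 genes, 2 were called higher and 1 lower. That fit called 0.644% of all probe sets higher and 1.05% lower. The differences of the lost members were about as large, at 0.73 for Ccng1 and 0.72 for Zmat3 against 0.74 and 0.75 with all arrays. Fewer arrays enter that fit, and the labels do not document a pairing. Same-numbered arrays did not deviate together (correlation of the null difference with the WT difference -0.157).

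The array weights planned, estimated by REML, did not converge and gave the second WT array a weight of 1813 and the other arrays weights of 0.0521 to 0.299, and that fit called 0 members. It is not used. Gene-by-gene weights, chosen after that result was seen, kept both member calls. For relatives of the members, added after the data were seen, 2 were called higher with all arrays, 1 with the replicate block and 2 without any 1 WT array. Of all probe sets, 0.644% were called higher with the block and 0.777% to 1.14% without a WT array. Without the first null array the differences of these relatives were 0.54 for Isg20l2 and 0.62 for Zmat1. Of the 22 member probe sets, 15 were dim, which limits what a small difference there can show.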
